A study of Mus musculus with 16 samples.

Results

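The 10 genes examined are the core of the mammalian circadian clock in the cortical bone of the mouse femur: Arntl, Clock, Per1, Per2, Per3, Cry1, Cry2, Nr1d1, Nr1d2 and Dbp. They were chosen by symbol, and all 10 were found among the 36829 features listed for each mouse. RNAseq was performed on 16 libraries, each from 1 female C57BL/6J mouse of 11 weeks. In the HLU group (n = 8) the hindlimbs were unloaded for 7 days by hanging the tail from a harness, and the Control group (n = 8) bore weight normally. All mice lived under a light/dark cycle of 12/12 hours. The marrow was flushed from the bone before freezing, so the RNA came from all cells that stayed in the cortical bone. The hour of sacrifice of each mouse is not given in the sources used here, so a difference in clock phase and an effect of unloading cannot be told apart.

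In the clock, the activators Arntl (also called Bmal1) and Clock form a dimer that binds E-box sequences and switches on the Per, Cry and Nr1d genes and Dbp. The PER and CRY proteins inhibit that dimer, which closes the main loop over about a day. The receptors encoded by Nr1d1 and Nr1d2 (Rev-erb alpha and beta) repress Arntl through ROR elements, so Arntl RNA runs in antiphase to the RNA of Nr1d1 and Dbp in most tissues, bone included. Mice sampled at different phases would then differ from each other in opposite directions in Arntl and in Nr1d1 and Dbp. The same need not hold for every pair of an activator and a repressor.

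Transcript abundance is given as RPKM, a unit that scales reads by gene length and library size. The gene lengths implied by the values differ from those of GENCODE M21 (Arntl 2925 against 7523 bases, Dbp 5036 against 2993), so the order of levels between genes depends on the annotation, while comparisons of a gene between mice do not. The number of reads behind the RPKM scale was between 7067512 and 19708590 in Control and between 7838277 and 21363584 in HLU (two-sided exact permutation test of its log2, p = 0.543). The smallest libraries were Control 2 and HLU 5. All 10 clock genes passed the filter of a mean of 0.5 RPKM, as did 16973 features in all, and each clock gene had at least 69 reads in every mouse. No library repeated another (highest correlation of log2 values between 2 libraries, r = 0.95). Several markers of osteocytes (Dmp1, Mepe, Sost), osteoblasts and osteoclasts were abundant, but not all. Fgf23 and Pdpn of the osteocyte list and Ocstamp of the osteoclast list were far lower, and Calcr of the latter did not pass the filter. Markers of marrow cells were also abundant. The summed RPKM of 3 granulocyte markers (Ltf, Camp, Ngp) ran from 4621 to 8266 in Control and from 3162 to 12015 in HLU. That of 5 erythroid markers ran from 921 to 1887 in Control and from 469 to 1766 in HLU.

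None of the 10 clock genes was called different between HLU and Control at an unadjusted p under 0.05 with a change of at least 1.2-fold, where 5.87% of all features were called (1.11% higher and 4.76% lower), and none had an adjusted p under 0.1, where 0% of all features did (limma, lowest adjusted p of all features 0.256, 1049 features having an unadjusted p under 0.05 whatever their fold; lowest of the clock genes 0.760). Of the 10 genes, 7 had a positive log2 fold change, and their median was 0.19 against -0.10 for all features. In every one of the 10 the range of the HLU mice overlapped that of the Control mice. The share of all features with overlapping ranges was not obtained, so this overlap cannot be read as particular to the clock.

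**Figure D1:**
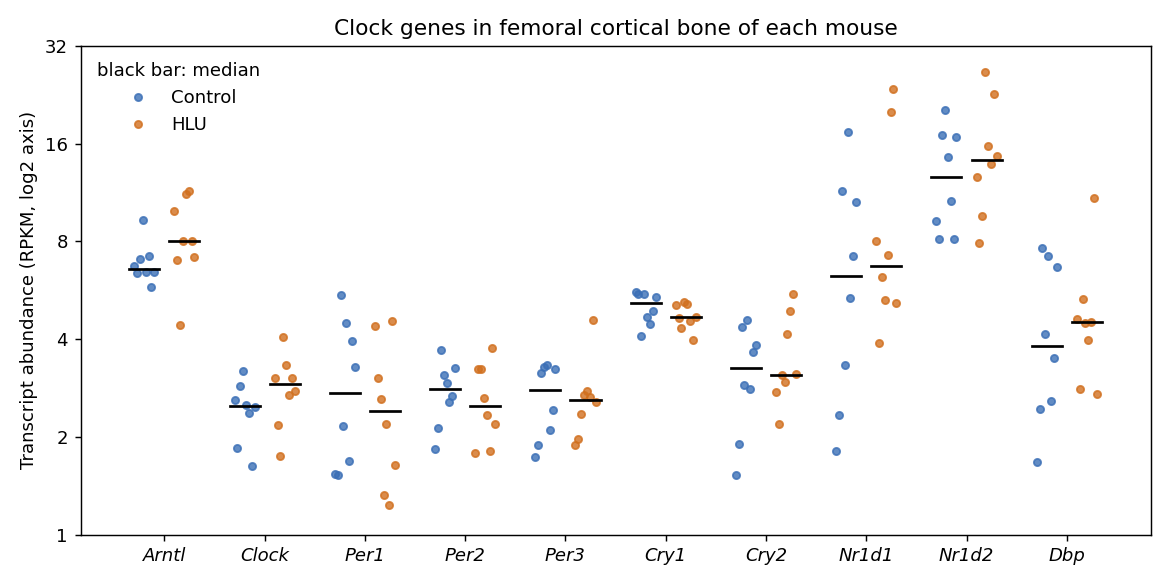
RPKM (log2 axis) of the 10 clock genes in each mouse, 8 Control (blue) and 8 HLU (orange), with the median of each group as a black bar. The groups overlap for every gene, and the spread within a group is widest for Nr1d1 (1.82 to 17.4 in Control) and narrowest for Cry1.

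Among the activators, Arntl, the partner without which the clock stops, had a lowest, median and highest RPKM of 5.79, 6.59 and 9.33 in Control and of 4.42, 8.03 and 11.5 in HLU. The ranges overlapped, with 7 of 8 HLU mice above the Control median, 3 above every Control mouse and HLU 3 below every Control mouse. The mean was 6.92 ± 1.07 (SD, n = 8) in Control and 8.40 ± 2.36 (SD, n = 8) in HLU, a log2 fold change of 0.23 ± 0.17 (SE) that did not exceed the spread between mice (limma unadjusted p = 0.186, exact permutation p = 0.197). Without HLU 3 the change was 0.36 (exact permutation p = 0.0185, limma adjusted p = 0.542), the only omission of 1 mouse that moved any of the 10 genes past an unadjusted p of 0.05. Clock, its partner and a histone acetyltransferase, ran from 1.62 over a median of 2.49 to 3.20 RPKM in Control and from 1.75 over 2.90 to 4.07 in HLU. Its groups overlapped as well (log2 fold change 0.21 ± 0.17 SE, exact permutation p = 0.227).

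Among the repressors of the main loop, Per1, which light and glucocorticoids induce at once, had a lowest, median and highest RPKM of 1.52, 2.72 and 5.46 in Control and of 1.23, 2.40 and 4.54 in HLU. Control and HLU mice were interspersed (log2 fold change -0.19 ± 0.33 SE, exact permutation p = 0.597). With the erythroid and granulocyte marker scores as covariates the change in Per1 was -0.76 (exact permutation p of the residual difference 0.0482, limma p = 0.0908, adjusted p = 0.775). Per2 went from 1.83 to 3.71 RPKM in Control and from 1.79 to 3.75 in HLU (log2 fold change -0.09, exact permutation p = 0.601). Per3, which the clock drives strongly but does not need, went from 1.74 to 3.33 and from 1.89 to 4.57 (0.01, exact permutation p = 0.942).

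The cryptochromes are the stronger inhibitors of the Arntl and Clock dimer. Cry1 had the narrowest range of the 10 genes, with a lowest, median and highest RPKM of 4.10, 5.15 and 5.57 in Control and of 3.98, 4.67 and 5.21 in HLU. The log2 fold change was -0.09 with a 95% interval of -0.29 to 0.12 (limma), and 1 of 8 HLU mice was above the median of Control, but the ranges overlapped (exact permutation p = 0.249). Its direction turned with the scaling, and was 0.03 after quantile normalization. Cry2 ran from 1.52 over a median of 3.27 to 4.57 RPKM in Control and from 2.20 over 3.11 to 5.52 in HLU (log2 fold change 0.19, exact permutation p = 0.461).

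Of the Rev-erb receptors, Nr1d1 had a lowest, median and highest RPKM of 1.82, 6.27 and 17.4 in Control and of 3.89, 6.74 and 23.6 in HLU. The medians were close together, and HLU 6 and HLU 7 lay above every Control mouse. The mean was 7.44 ± 5.41 (SD, n = 8) in Control and 9.93 ± 7.50 (SD, n = 8) in HLU, and the estimated fold of 1.40 had a 95% interval of 0.70 to 2.82, so neither a fall nor a change above 2-fold was outside it (limma unadjusted p = 0.324, exact permutation p = 0.362). Nr1d2, the more abundant of the pair, ran from 8.12 over a median of 12.6 to 20.3 RPKM in Control and from 7.91 over 14.3 to 26.5 in HLU. Its groups overlapped (log2 fold change 0.22, exact permutation p = 0.438).

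Dbp, a PAR bZip factor that acts on D-box sequences and is the usual readout of E-box drive, had a lowest, median and highest RPKM of 1.67, 3.81 and 7.62 in Control and of 2.72, 4.51 and 10.9 in HLU. Only HLU 7 lay above all Control mice, and the groups otherwise overlapped (4.48 ± 2.36 against 4.92 ± 2.58 RPKM, SD, n = 8 each; log2 fold change 0.19, exact permutation p = 0.60). The positive changes of Nr1d1 and Dbp depended on the marker covariates: with the erythroid and granulocyte scores as covariates they were -0.21 and -0.29, neither past the test, and 4 of the 10 genes then had a positive change. HLU libraries had a lower erythroid score (mean log2 difference -0.54, exact permutation p = 0.0749) and a higher osteocyte score (0.47, exact permutation p = 0.0696), while the granulocyte score differed by -0.03 (p = 0.90, exact permutation test). In bulk RNA, fewer cells of a type and less RNA per cell cannot be told apart.

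**Figure D2:**
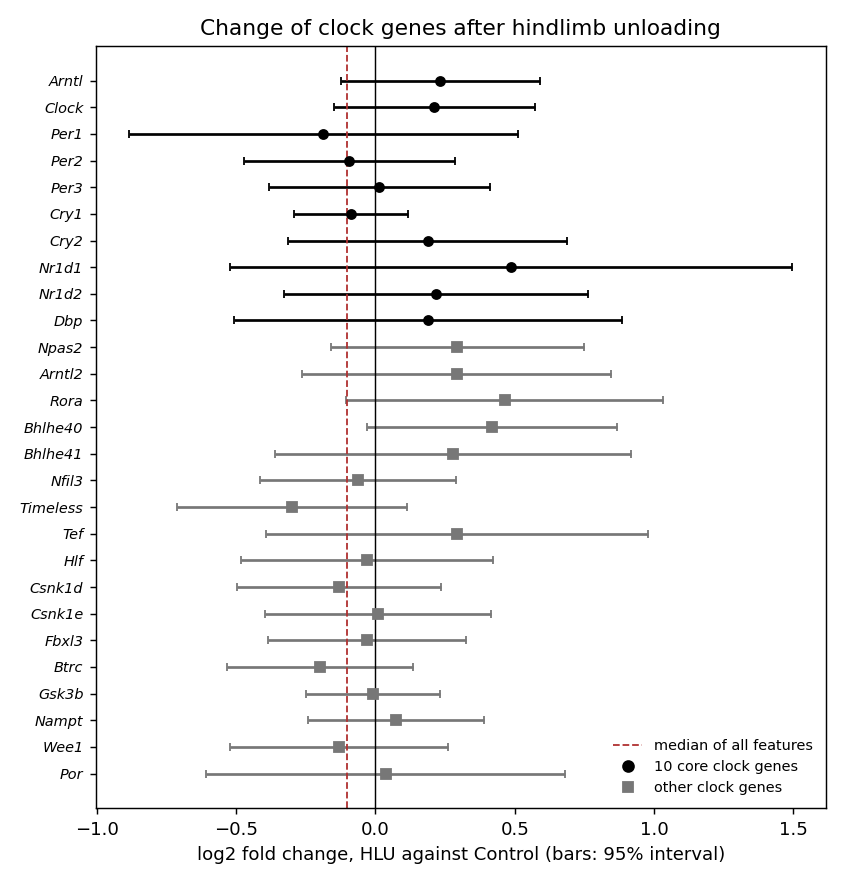
log2 fold change of HLU against Control (points) with its 95% interval from limma (bars), for the 10 core clock genes (black circles) and 17 other clock genes (grey squares). The intervals of all genes shown include 0, and the widest is that of Nr1d1; the dashed line is the median of all features, -0.10.

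Of 22 other genes of the clock, 21 were listed and 18 passed the filter (Ciart, Rorb and Fbxl21 did not). Of the 17 of these described here, 9 had a positive change and none had an unadjusted p under 0.05 (limma, lowest 0.066), where 6.18% of all features did at any fold change. Rora, a receptor that competes with the Rev-erb proteins for the same DNA element and activates Arntl, ran from 1.40 over a median of 2.45 to 2.98 RPKM in Control and from 1.47 over 3.30 to 6.05 in HLU. Its log2 fold change was 0.46 ± 0.27 (SE), with 6 of 8 HLU mice above every Control mouse (limma unadjusted p = 0.104, exact permutation p = 0.124). Bhlhe40, a repressor that binds E-boxes and also responds to hypoxia, had a change of 0.42 (limma unadjusted p = 0.066). Of 6 genes that glucocorticoids induce (Fkbp5, Tsc22d3, Sgk1, Zbtb16, Dusp1 and Cebpd), 2 had a positive change and none had an unadjusted p under 0.05 (limma, log2 changes from -0.13 to 0.16).

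The clock genes differed widely in how much they varied between mice of the same group. From the lowest to the highest of the 16 mice, the RPKM of Nr1d1 differed 13.0-fold, that of Dbp 6.52-fold, that of Per1 4.42-fold and that of Cry2 3.63-fold, against 2.60-fold for Arntl, 2.51-fold for Clock and 1.40-fold for Cry1. The SD of log2 abundance within groups was 1.04 for Nr1d1, at percentile 90.1 of all 16973 features kept, where the median feature had 0.43. It was 0.71 for both Dbp (percentile 79.2) and Per1 (percentile 79.0), 0.34 for Arntl (percentile 34.4) and 0.15 for Cry1 (percentile 1.91). The reads behind these values set a counting SD of 0.07 for Nr1d1, 0.08 for Dbp and 0.10 for Cry1 on the same scale, so counting error was small beside the spread in Nr1d1 and Dbp and close to it in Cry1.

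Whether the genes rose and fell together between mice was then examined with values centred on the mean of each group. For each pair, limma was fitted with 1 gene as the reference and with the other, adjusted over all other features, and the pair was called when both adjusted p were under 0.05. Of 45 pairs, 33 had a positive Pearson's r and 8 were called, all 8 with both genes moving the same way. The share of all features that rose with the reference was 17.7% for Cry2, 20.2% for Nr1d1, 10.4% for Dbp, 8.05% for Nr1d2, 6.09% for Clock, 4.06% for Per3, 0.00589% for Per1 and 0% for Arntl, Per2 and Cry1. The share that fell was 14.6% for Cry2, 20.3% for Nr1d1, 13.7% for Dbp, 10.2% for Nr1d2, 10.1% for Clock, 3.62% for Per3 and 0% for the other 4 genes. Large parts of the transcriptome thus moved with the same genes, and these calls cannot be read as particular to the clock.

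**Figure D3:**
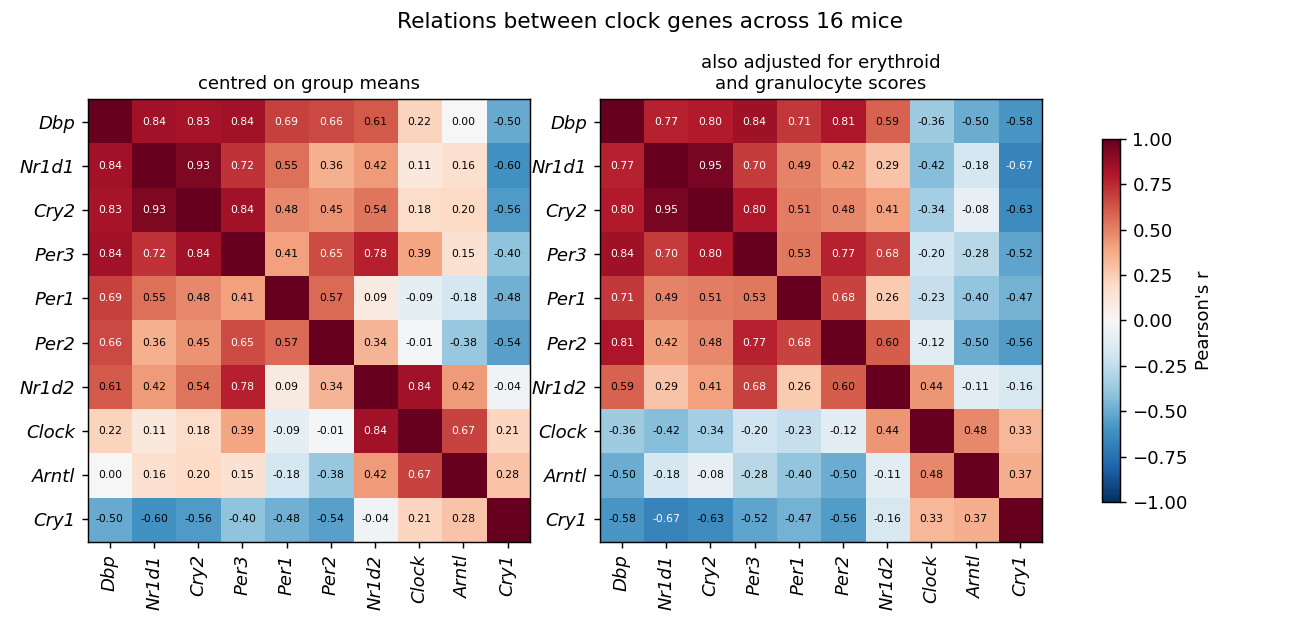
Pearson's r between clock genes over 16 mice, with values centred on group means (left) and also adjusted for erythroid and granulocyte marker scores (right); red is positive and blue negative. Dbp, Nr1d1, Cry2 and Per3 form a block of r from 0.72 to 0.93 on the left. Cry1 is negative with every gene of that block, and the r of Arntl with Dbp goes from 0.00 to -0.50.

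The block of Per3, Cry2, Nr1d1 and Dbp, singled out after the values were seen, had all its 6 pairs called. The closest relation was that of Cry2 and Nr1d1, with r = 0.93 (rho = 0.89, permutation p = 1e-05, the smallest the permutations can give; larger limma adjusted p = 8.2e-05) and r = 0.91 without the 2 mice farthest from the median. It held in the Control mice (r = 0.96, n = 8, exact permutation p = 7.4e-05) and in the HLU mice (r = 0.90, n = 8, exact permutation p = 0.00243), and it was called whichever mouse was left out. Nr1d1 and Dbp had r = 0.84 (rho = 0.76, permutation p = 0.00025; r = 0.75 without the 2 farthest mice), and Cry2 and Dbp had r = 0.83 (rho = 0.75, permutation p = 0.00018; r = 0.72). Both of these were also called whichever mouse was left out.

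The relations of Per3 were less firm. Per3 had r = 0.84 with Dbp, 0.84 with Cry2, 0.78 with Nr1d2 and 0.72 with Nr1d1, and all 4 calls were lost without Control 1 (larger adjusted p from 0.0850 to 0.0996), without Control 5 (0.0506 to 0.0706), without HLU 2 (0.0570 to 0.0788) or without HLU 7 (0.0507 to 0.110). Leaving out any 1 of these 4 mice brought the 8 calls to 4. The pairs of Per3 with Nr1d1 and Nr1d2 were also lost without Control 2 or Control 3, and that with Nr1d1 without Control 8.

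Single mice stood at the ends of the block. HLU 7 had the highest value of all 16 mice in Dbp (10.9 RPKM), Nr1d1 (23.6), Cry2 (5.52), Per3 (4.57) and Per2 (3.75) and the lowest in Cry1 (3.98). Control 1 was its mirror image, with the lowest Dbp (1.67), Nr1d1 (1.82), Cry2 (1.52) and Per3 (1.74) and the highest Cry1 (5.57). Cry1, whose RNA lags the other repressors in a running clock, had a negative r with Nr1d1 (-0.60, rho = -0.69, permutation p = 0.021; -0.44 without the 2 farthest mice), with Cry2 (-0.56, permutation p = 0.0334; -0.37) and with Per2 (-0.54, permutation p = 0.0351; -0.36). None of these pairs was called after adjustment over all features.

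**Figure D4:**
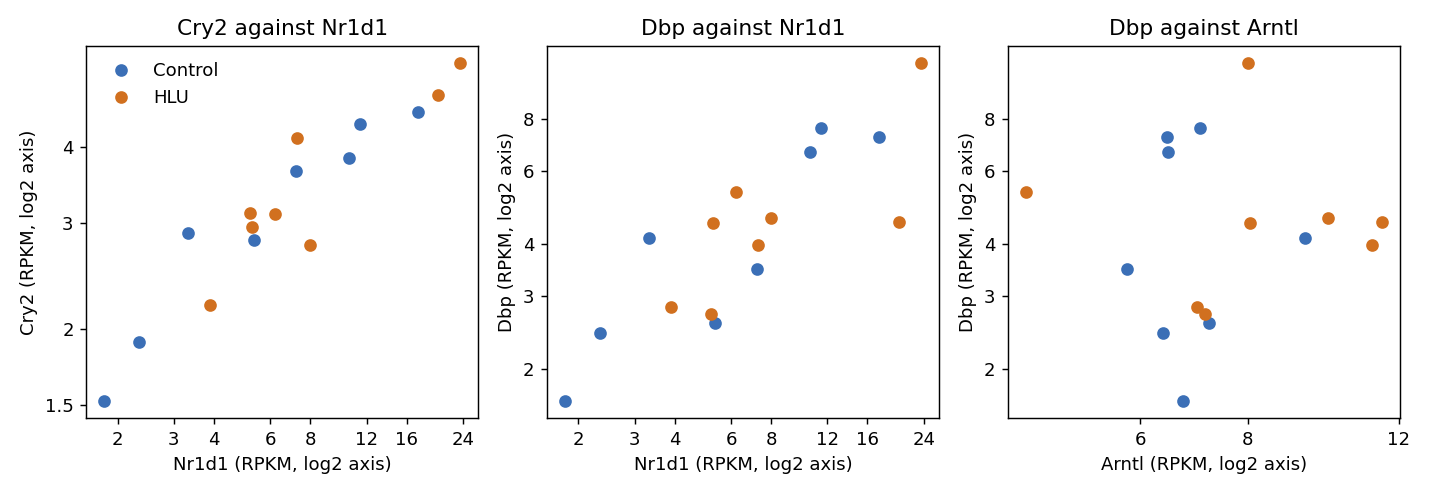
RPKM (log2 axes) of Cry2 against Nr1d1, Dbp against Nr1d1 and Dbp against Arntl in 8 Control (blue) and 8 HLU (orange) mice. Cry2 and Dbp rise with Nr1d1 (r = 0.93 and 0.84), while Dbp shows no trend with Arntl (r = 0.00).

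No pair of an activator and a repressor or output gene was called in opposite directions. The r of Arntl with the 8 Per, Cry and Nr1d genes and Dbp ran from -0.38 (Per2) to 0.42 (Nr1d2), with 0.16 for Nr1d1 and 0.00 for Dbp; 3 of the 8 were negative, and none had a permutation p under 0.05. In the limma fit on Arntl, 0 of the other 9 clock genes had an adjusted p under 0.05, as had 0% of all features, and 1 (Clock) had an unadjusted p under 0.05, as had 10.3% of all features. Arntl and Clock had r = 0.67 (rho = 0.64, permutation p = 0.00738; r = 0.63 without the 2 farthest mice), with limma adjusted p of 0.484 and 0.037 with Arntl and with Clock as the reference. Clock moved with Nr1d2 (r = 0.84, rho = 0.84, permutation p = 0.00018; r = 0.78 without the 2 farthest mice), a pair called whichever mouse was left out. Both genes fell as granulocyte markers rose (r = -0.88 and -0.82). With the erythroid and granulocyte scores as covariates their r was 0.44 and the call was lost, as it was with 4 marker scores (r = 0.48) and with the replicate number as a block.

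Relations of Per1 and Per2 were larger in Control than in HLU for several pairs, which were picked after their values were seen. Per1 and Cry2 had r = 0.90 in Control (exact permutation p = 0.00196) and -0.06 in HLU (exact permutation p = 0.883), and Per2 and Dbp had 0.91 (exact permutation p = 0.00112) and 0.42 (exact permutation p = 0.326). Tested directly, the slopes of Cry2 on Per1 and on Per2 differed between groups at unadjusted p of 0.0197 and 0.0199 but not after adjustment (limma adjusted p = 0.671 and 0.508), where 7.37% of all features had an unadjusted p under 0.05 for Per1 and 9.72% for Per2. Of 90 slope differences between clock genes, 5 had an unadjusted p under 0.05 and none an adjusted p under 0.05. With Arntl as the reference, 0 of 9 clock genes and 0% of all features had a slope that differed between groups at an adjusted p under 0.05 (6.36% at an unadjusted p under 0.05). Within the 8 Control mice alone 6 pairs were called and within the 8 HLU mice 0. The share of all features called in each group alone was not obtained, so these counts cannot be read as a difference between the groups. The SD of Arntl was 0.20 in Control and 0.44 in HLU on the log2 scale. Without HLU 6, the mouse with the lowest Per1 and with Nr1d1 at 20.1 RPKM, 3 pairs of Per1 were added to the 8 (with Nr1d1, Dbp and Cry2, larger adjusted p 0.00511, 0.0126 and 0.0338).

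Marker genes of other cell types moved with several of the clock genes. Of 80 relations between the 10 genes and 7 marker scores or the size of the library, 11 had an adjusted p under 0.05. The share of all features related to the same scores was not obtained, so this count cannot be read as particular to the clock. Nr1d2 and Clock fell as granulocyte markers rose (r = -0.88, rho = -0.86 and r = -0.82, rho = -0.83; permutation p adjusted over the 80 relations 0.0024 and 0.0084; r = -0.81 and -0.77 without the 2 farthest mice) and as erythroid markers rose (r = -0.73 and -0.71). Nr1d1 and Cry2 rose with adipocyte markers (r = 0.80, rho = 0.78, adjusted permutation p = 0.0125; r = 0.73, rho = 0.69, adjusted permutation p = 0.0254). Nr1d2, Cry2, Dbp and Per3 rose with osteocyte markers (r from 0.70 to 0.75), and Per1 with osteoblast markers (r = 0.70). The r with library size lay between -0.28 and 0.23. Only 3 of 6 granulocyte markers were used, the muscle markers were not used here, and the part of these cells in the relations between clock genes was not tested beyond the covariate fits.

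**Figure D5:**
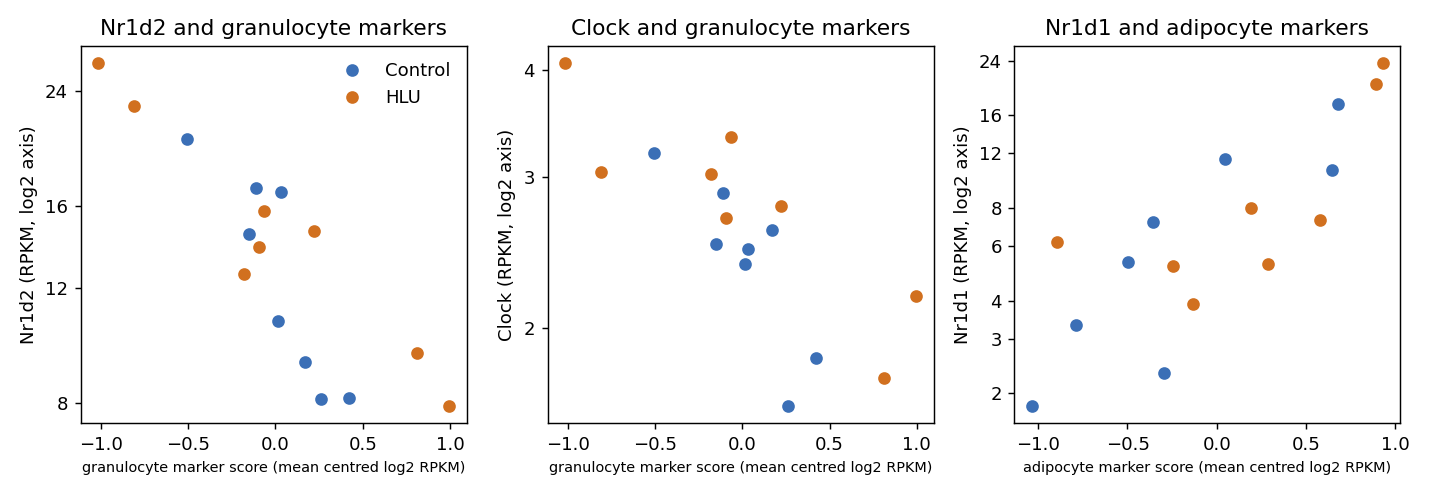
RPKM (log2 axis) of Nr1d2 and Clock against the granulocyte marker score and of Nr1d1 against the adipocyte marker score, the mean centred log2 RPKM of each marker list, in 8 Control (blue) and 8 HLU (orange) mice. Nr1d2 and Clock fall as the granulocyte score rises (r = -0.88 and -0.82), and Nr1d1 rises with the adipocyte score (r = 0.80).

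With the erythroid and granulocyte scores as covariates, of the 8 pairs only that of Cry2 and Nr1d1 was called. In this fit 27.9% of all features rose and 18.6% fell with Nr1d1, and 28.3% rose and 14.8% fell with Cry2. With Dbp and with Arntl 0% rose and 0% fell. The lost pairs of Dbp and the uncalled relations of Arntl are thus not particular to the clock genes. The r of most pairs stayed close to the values above: 0.84 for Per3 and Dbp, 0.80 for Per3 and Cry2, 0.80 for Cry2 and Dbp, 0.77 for Nr1d1 and Dbp, 0.70 for Per3 and Nr1d1 and 0.68 for Per3 and Nr1d2. That of Nr1d2 and Clock was 0.44. The r of Arntl with 7 of the 8 repressor and output genes was then negative, down to -0.50 for Dbp and Per2, and none was called (limma unadjusted p on Arntl 0.0606 for Dbp and 0.0737 for Per2, adjusted p = 0.995 for both). In this fit 0 of the other 9 clock genes had a limma unadjusted p under 0.05 on Arntl, beside 2.98% of all features. The share of all features with a negative r was not obtained. Several of the 8 genes moved together, so the 7 negative values are not separate results. The osteocyte and adipocyte scores were then added, a choice made after seeing the data that left 10 residual degrees of freedom. The r of Arntl and Dbp was -0.86 (rho = -0.87, limma unadjusted p = 0.000257, adjusted p = 0.672). This r ran from -0.92 to -0.81 with 1 mouse left out in turn, and was -0.77 without the 2 farthest mice. Within the block r was lower in this fit than with 2 scores. It was 0.88 for Cry2 and Nr1d1, 0.74 for Per3 and Dbp and 0.63 for Nr1d1 and Dbp. It was 0.62 for Per3 and Cry2, 0.61 for Cry2 and Dbp and 0.42 for Per3 and Nr1d1. Of the 9 clock genes, 2 had an unadjusted p under 0.05 on Arntl in this fit, both falling (Dbp and Per2), beside 5.54% of all features. None was called at an adjusted p under 0.05, where 0% of all features were.

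Among the other 17 clock genes described, 5 rose with Dbp at an adjusted p under 0.05, where 10.4% of all features did, and 1 fell (Wee1, a cell cycle kinase under E-box control, r = -0.61), where 13.7% did. The closest was Tef, a PAR bZip factor like Dbp (r = 0.87, rho = 0.77, limma adjusted p = 0.00455), followed by Bhlhe40 (r = 0.84), Bhlhe41 (r = 0.82), Hlf (r = 0.71) and Csnk1e (r = 0.63). None of the 17 was related to Arntl at an adjusted p under 0.05, and the highest r was that of its paralogue Arntl2 (0.61). Over all features, 4 of the 5 highest r with Dbp were those of Aldh1a3 (0.92), Gprc5b (0.90), Nsg1 (0.90) and Ccdc8 (0.89), and the 5 lowest those of F13a1 (-0.89), Trim37 (-0.89), Gm24357 (-0.88), Ms4a3 (-0.88) and Gm8054 (-0.88). With Arntl they were Mir574 (0.86), Heg1 (0.85), Fam89a (0.84), Scin (0.84) and Gm8923 (0.82), and at the other end Mto1 (-0.79), Arv1 (-0.77), Gm22410 (-0.77), Tti1 (-0.75) and Exosc1 (-0.75), of which none had an adjusted p under 0.05.

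The genes lie apart from each other on the genome, Per1 (chr11:69095217-69109960) and Nr1d1 (chr11:98767932-98775333) being on one chromosome and Dbp (chr7:45705088-45710203) and Arntl (chr7:113207465-113314126) on another (GENCODE M21, GRCm38). Cry2 (chr2:92403646-92434043) and Per3 (chr4:151003652-151044665) lie on others. The kit does not keep the strand, and exons of Nr1d1 share 263 bases (8.55% of its exonic length) with Thra on the opposite strand and those of Dbp share 539 bases (18.0%) with Sphk2, so reads there cannot be assigned to a gene. Thra had a mean of 7.47 RPKM and Sphk2 of 2.37 RPKM.

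Promoters were searched for the elements through which the loops act, since several of the genes moved together. RefSeq entries (GRCm38.p6) were found for 9 of the 10 genes, all but Per2, with 250 bases before and 50 after each start. The E-box CACGTG, bound by the Arntl and Clock dimer, was found in entries of Per1 and Cry1 and in 7.15% of 32851 promoters. The D-box TTANGTAA, bound by Dbp, Tef and Hlf, was found only in that of Per3, at -205 and -158 from the start (2.32% of promoters). For the ROR element, through which the Rev-erb and ROR receptors act, the loose form TNGGTCA was searched, N being any base. It was found in entries of Arntl, Per3 (-118) and Cry2 (-133), and in 11.0% of promoters. The Arntl entry with its start at 113207465 held TTGGTCA (-200) and TCGGTCA (-181). Another Arntl entry, with its start at 113207511, held the same matches and TAGGTCA at 30, after its start. Whether the receptors bind these letters was not tested. Both strands were searched, a match is only a description of the letters, and elements outside the window were not looked for. The 250 bases before the start are shown for the genes with a match, with each match in that stretch in capitals. TGACCAA is TTGGTCA read on the other strand.
Per3 (chr4:151044666-151044915, minus strand): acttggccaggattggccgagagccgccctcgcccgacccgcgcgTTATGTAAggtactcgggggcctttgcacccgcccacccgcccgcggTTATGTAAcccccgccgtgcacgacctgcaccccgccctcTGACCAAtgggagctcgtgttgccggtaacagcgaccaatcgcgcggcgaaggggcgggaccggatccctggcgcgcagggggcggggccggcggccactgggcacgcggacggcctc
Cry2 (chr2:92434070-92434319, minus strand): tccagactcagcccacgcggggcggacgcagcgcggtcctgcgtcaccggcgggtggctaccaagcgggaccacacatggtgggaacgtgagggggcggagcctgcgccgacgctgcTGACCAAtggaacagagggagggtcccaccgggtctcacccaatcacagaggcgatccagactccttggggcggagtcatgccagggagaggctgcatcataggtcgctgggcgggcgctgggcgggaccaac
Arntl (chr7:113207215-113207464, plus strand): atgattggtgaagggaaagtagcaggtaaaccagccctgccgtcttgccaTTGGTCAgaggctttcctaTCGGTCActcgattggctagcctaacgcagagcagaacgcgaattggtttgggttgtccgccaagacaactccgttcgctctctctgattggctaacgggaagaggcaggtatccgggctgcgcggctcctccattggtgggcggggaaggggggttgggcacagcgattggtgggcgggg
Cry1 (chr10:85185055-85185304, minus strand): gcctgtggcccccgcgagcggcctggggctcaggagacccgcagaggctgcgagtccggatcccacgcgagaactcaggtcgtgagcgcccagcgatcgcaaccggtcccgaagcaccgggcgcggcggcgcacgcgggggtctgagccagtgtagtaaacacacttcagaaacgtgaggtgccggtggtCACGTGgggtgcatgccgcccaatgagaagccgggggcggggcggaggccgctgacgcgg
Per1 (chr11:69098699-69098948, plus strand): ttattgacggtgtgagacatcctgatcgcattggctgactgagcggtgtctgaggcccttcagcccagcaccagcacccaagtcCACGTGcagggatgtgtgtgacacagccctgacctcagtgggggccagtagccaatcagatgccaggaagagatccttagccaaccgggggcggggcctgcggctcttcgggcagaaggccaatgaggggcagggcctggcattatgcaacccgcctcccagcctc
Of Per3, Cry2, Nr1d1 and Dbp, only Per3 held a D-box in its window and none held this E-box. Arntl held TTGGTCA and TCGGTCA in the stretch shown, and TAGGTCA lay after the start of its other entry.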

How the data were processed

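Total RNA of the femoral cortical bone of 16 mice was sequenced on a HiSeq after TruSeq v2 preparation, as the methods of the study describe. The authors aligned the reads with TopHat2, and mm9 is named as the genome build in the submitters' processing notes; they deposited RPKM values per gene and mouse, with no further scaling between libraries stated. The counting tool and annotation are not given in the sources used here. DESeq2 was the authors' test on reads. Groups came from the sample titles.

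Values were analysed as log2(RPKM + 0.1) with limma 3.58.1 (variance trend) in R 4.3.3, so fold changes of low genes are understated, with a minimum mean of 0.5 RPKM, Benjamini-Hochberg adjustment over all 16973 features, and two-sided exact permutation tests over 12870 splits for single genes (smallest p 0.000155). Relations used values centred on group means and 100000 permutations within groups, or all orderings within 1 group. P-values measure the spread between these mice. On simulated data limma recovered 122 of 200 features changed 2-fold with 8 false calls, and 133 of 200 relations of r 0.9 with 4 false calls. The other simulated features were independent of each other, and each relation was tested in 1 direction only. The share recovered therefore does not give the power of the pair calls.

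Whole reads were recovered from the RPKM steps for all 16973 features (tolerance 0.02 reads) and used for depth and for limma-voom; intervals and depth cover counting error only. The 10 genes and all lists were chosen with earlier results of these data known. Named genes are the 10 genes, the other clock genes, and the 5 features with the highest and the 5 with the lowest r with Arntl and with Dbp, leaving out symbols that are shared, that are dates, or Rnf135. Of these, 2 genes are not reported here. Marker scores are the mean centred log2 value of each list. B lymphocyte scores differed by -0.43 between groups (exact permutation p = 0.138), adipocyte scores by 0.40 (0.212), osteoblast scores by -0.05 (0.855) and osteoclast scores by -0.02 (0.930). Alternatives were 2 other pseudocounts, 2 other filters, median-of-ratios and quantile scaling, the replicate number as a block, no variance trend, marker covariates, voom and each mouse left out. Python 3.11.15, numpy 2.4.6, scipy 1.17.1, pandas 2.3.3 and matplotlib 3.10.9 were used.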

Additional observations from a re-analysis of the deposited data

Results flagged for a closer look

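In 62 groups of 8 values of clock genes, 10 had a highest or lowest mouse whose gap to the nearest other exceeded 0.526 of the range of the group; chance flags about 1 group in 20. In HLU 7, Dbp was at 10.9 RPKM (next highest HLU mouse 5.33), Per3 at 4.57 (2.76), Hlf at 1.32 (0.818) and Ciart at 0.865 (0.491). In Control 7, Npas2 was at 1.36 RPKM (next 0.925), Timeless at 6.78 (4.60) and Btrc at 13.1 (9.47). Arntl was at 9.33 RPKM in Control 4 (next 7.21), Nampt at 44.1 in HLU 4 (next 32.1), and Fbxl21, below the filter, was listed at 0 in HLU 3 (next lowest 0.0561).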

How the results depend on the processing

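The number of features higher and lower at an unadjusted p under 0.05 with a change of at least 1.2-fold (188 and 808) was 376 and 401 after median-of-ratios rescaling, 460 and 364 after quantile normalization, 391 higher without a filter, 106 higher at a minimum of 2 RPKM, 320 higher with erythroid and granulocyte scores, 339 and 1448 with 4 marker scores, and 108 higher without the 2 smallest libraries; with 1 mouse left out it ran from 117 to 363 and from 471 to 1385. Quantile normalization moved the median log2 change of all features from -0.10 to 0.00. At an adjusted p under 0.1, 1 feature was found without a filter or without the variance trend, and 0 to 1 with 1 mouse left out. Of the clock genes, 1 was called with 4 marker scores and 0 to 1 with 1 mouse left out. The gene called with 4 scores was Per1 (log2 change -1.05, exact permutation p = 0.0172, limma p = 0.0339), whose change was -0.76 with 2 scores. In the fit with 4 scores 339 of all 16973 features were called higher and 1448 lower. The call of Per1 therefore cannot be read as particular to the clock.

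The changes of Per3 (-0.046), Nr1d1 (-0.21) and Dbp (-0.29) turned negative with erythroid and granulocyte scores, those of Per3 (-0.14), Cry2 (-0.13), Nr1d1 (-0.39) and Dbp (-0.57) with 4 scores, that of Per3 (-0.058) without the 2 smallest libraries, and that of Cry1 positive (0.025) after quantile normalization; none of these passed the test, and the cause was not tested. With 1 mouse left out, Per3 ran from -0.099 to 0.076 and Arntl from 0.16 to 0.36. The 8 pairs moving the same way were 4 to 11 with 1 mouse left out, 4 without the 2 smallest libraries, 1 with 2 or 4 marker scores, 0 in the 8 HLU mice alone (6 in the 8 Control mice alone), and 7 to 9 under the other alternatives run on all mice except the block. With the replicate number as a block 3 pairs were called, and Nr1d2 with Clock and the 4 pairs of Per3 were not; same-numbered mice deviated together in 3 of 8 numbers (r from -0.17 to 0.51) and 1 Control and 2 HLU mice correlated best with their own number, so the numbers were not taken to pair the mice. Slopes on Arntl differed between groups for 91 features without a filter and for 0 to 2 with 1 mouse left out. At an adjusted p under 0.05, no pair in opposite directions and no clock gene on Arntl was called under the alternatives run, although the r of Arntl and Dbp was -0.86 with 4 marker scores. The scaling, the unknown hour of sacrifice and marrow cells limit what the small differences between groups can show.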
